A study of Mus musculus with 30 samples.

Results

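The ligands of the transforming growth factor-β (TGF-β) superfamily examined here were Tgfb1, Tgfb2 and Tgfb3, the bone morphogenetic protein genes Bmp4, Bmp5, Bmp6 and Bmp7, the activin subunit gene Inhba, and Fst, which encodes follistatin. They were taken as all probe sets that the platform annotation assigns to these symbols, 19 probe sets of 9 genes among 45037 probe sets of 18193 genes. Each of 30 arrays held the hypothalamic RNA of 1 newborn female C57BL/6J mouse. On the day of birth mice were given estradiol benzoate (EB, an ester of estradiol) under the skin at 7.5 μg in 20 μl peanut oil, or the oil alone as vehicle, and the whole hypothalamus was taken 1, 3, 6, 12 or 24 h later (n = 3 mice in each of 10 groups). Whether mice shared a litter is not stated, and p-values measure the spread between these mice only.

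TGF-β, BMPs and activins are secreted dimers that bind pairs of type I and type II serine/threonine kinase receptors. The activated receptors phosphorylate Smad proteins, Smad2 and Smad3 for TGF-β and activin and Smad1, Smad5 and Smad8 for BMPs, and these enter the nucleus with Smad4. BMPs pattern the developing brain and restrain neural fate, and in mice the meninges are a known source of Bmp7. Follistatin binds activins tightly and keeps them from their receptors, and Inhba encodes the βA subunit of activin A.

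Of the 19 probe sets, 11 probe sets of 6 genes passed the filter that left out the lowest 40% of probe sets by mean log2 signal. These were all 4 of Tgfb2, those of Bmp4 and Bmp6, all 3 of Bmp7, and the brightest of Bmp5 and of Fst. The other 8 were both of Tgfb1, that of Tgfb3, both of Inhba, the 2 dimmer ones of Bmp5 and the dimmer one of Fst. Probe sets of a gene are numbered here by brightness, and values are MAS5 signals after each array was scaled to a median of 41.3. Signals of different probe sets are not comparable as levels. The 2 dimmer Bmp5 probe sets (1421283_at and 1421282_at) had geometric means of 8.13 and 1.30, against a filter at 21.9, so Bmp5 rested on 1 probe set.

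Array medians before scaling ranged from 28.0 to 66.9, with all 12 h arrays at 52.9 or above and all others at 44.1 or below. No arrays held identical values. Of 17 genes of hypothalamic identity with a probe set, 16 passed the filter, and none of 8 anterior pituitary genes did (0 genes). The EB arrays of 24 h stood apart in leptomeningeal fibroblast genes, which mark the inner brain coverings: the scaled signals of 24 such genes summed to 1548, 1690 and 6400 in the 3 EB-treated mice at 24 h, and to 10934, 11878 and 13110 in the vehicle-treated mice at 24 h. No marker was at 0, and 20 of 24 were lower in EB-treated mice at 24 h (limma). Of the other marker lists at 24 h, 0 of 10 endothelial, 1 of 10 mural, 2 of 11 microglial and macrophage, 1 of 11 astrocyte and radial glial, 0 of 8 oligodendrocyte, 0 of 6 choroid plexus and 1 of 12 neuronal genes passed, all of them lower, where 2.19% of all probe sets passed as lower. Microglial and macrophage means (log2, centred on all arrays) were -0.99, -0.77 and -0.40 in EB-treated mice, against 0.05, -0.14 and -0.12 in vehicle-treated mice. The 2 genes of this list that passed were Lyve1 and Mrc1. The median log2 fold change of the list was -0.07, with a lowest value of -4.23, so its means do not describe most of its genes. Mural means were -0.64, -0.65 and -0.27, against -0.01, -0.17 and -0.14. Endothelial and neuronal means were also lower in EB-treated mice without overlap, and choroid plexus, astrocyte and oligodendrocyte means overlapped. In the other 8 groups the leptomeningeal sums lay between 8959 in vehicle-treated mice at 1 h and 19862 in EB-treated mice at 12 h. The 24 h results of the BMP genes, Tgfb2, Fst and the called pathway genes are therefore also given without EB 24 h replicates 1 and 2, which leaves 1 EB-treated mouse at 24 h (replicate 3), whose spread is assumed to be that of the other groups. Such a value says how far the result rests on the pair, and whether it passes says nothing of its stability. In whole tissue, fewer cells of a type and less RNA per cell cannot be told apart.

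Promoter sequence was matched for 6 of the 9 genes (RefSeq, GRCm38.p6), and the 250 bases before the start are shown for Bmp4, Bmp5 and Bmp6, because these genes and Bmp7 had the lowest EB-to-vehicle ratios at 24 h of the members past the filter. Capitals mark GGGCGG, the GC box, or its complement, which was the only one of the searched motifs found in these windows. The windows are chr14:46390670-46390919 on the minus strand for Bmp4, chr9:75775115-75775364 on the plus strand for Bmp5 and chr13:38345466-38345715 on the plus strand for Bmp6.
Bmp4: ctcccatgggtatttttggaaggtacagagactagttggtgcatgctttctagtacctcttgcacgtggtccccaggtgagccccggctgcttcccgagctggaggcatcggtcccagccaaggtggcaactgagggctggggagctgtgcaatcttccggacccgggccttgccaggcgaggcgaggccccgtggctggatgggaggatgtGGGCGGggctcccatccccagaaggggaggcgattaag
Bmp5: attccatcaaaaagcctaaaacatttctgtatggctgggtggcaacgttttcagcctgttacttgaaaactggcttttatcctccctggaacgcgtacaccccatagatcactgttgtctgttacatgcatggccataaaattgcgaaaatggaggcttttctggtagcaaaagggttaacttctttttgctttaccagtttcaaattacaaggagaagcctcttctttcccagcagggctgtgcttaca
Bmp6: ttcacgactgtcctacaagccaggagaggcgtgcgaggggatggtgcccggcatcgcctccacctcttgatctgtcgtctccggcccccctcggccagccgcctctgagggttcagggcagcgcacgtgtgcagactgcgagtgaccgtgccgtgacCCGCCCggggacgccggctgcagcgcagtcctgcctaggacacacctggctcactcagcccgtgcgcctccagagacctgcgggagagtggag
The Bmp6 and Bmp4 windows were rich in G and C (68.8% and 63.2%) and the Bmp5 window was not (42.8%), against a median of 52.4% over 32851 promoters. The GC box occurred 1 time each in Bmp4 and Bmp6 and was in 32.7% of all promoters. Neither the full palindrome of the estrogen response element (0.0639% of promoters) nor AGGTCA, 1 of its arms (14.0%), was in the windows of the 6 matched genes on either strand, nor was the Smad palindrome GTCTAGAC (0.167%). TATAAA (12.4% of promoters, plus or minus strand) was in those of Tgfb2 and Inhba, 1 time each. These matches describe the letters of the windows only.

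The first question was whether EB changed the ligand genes at any time after the injection. No member probe set passed an adjusted p of 0.05 (limma, Benjamini-Hochberg over 27022 probe sets) at 1, 3, 6, 12 or 24 h (0 of 11 each). Over all probe sets, 0.0037%, 0.474%, 0%, 0% and 2.78% passed at these times. At an unadjusted p under 0.05 the members numbered 0, 0, 1, 5 and 5 of 11, and all probe sets numbered 2332, 3456, 1623, 1773 and 4232 (8.63%, 12.8%, 6.01%, 6.56% and 15.7%). Some of these members were probe sets of 1 gene: those at 12 h were of Tgfb2, Bmp4 and Bmp7, and those at 24 h of Bmp4, Bmp5, Bmp6 and Bmp7. The median log2 fold change of the members was 0.11, -0.12, -0.24, 0.33 and -0.54 from 1 h to 24 h, while that of all probe sets stayed between -0.01 and 0.05. Averaged over the 5 times no member passed either (0 of 11, 0.074% of all probe sets), and the EB effect did not pass as differing between times for any member (moderated F, 0 of 11, lowest adjusted p = 0.11, 0.958% of all probe sets).

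The lowest ratios at 24 h among the members past the filter were those of the BMP genes. There, 6 of 11 member probe sets had all 3 EB-treated mice below all 3 vehicle-treated mice and 0 had them above, where 14.3% of all probe sets had EB lower and 9.82% EB higher without overlap. They were those of Bmp5, Bmp6 and Bmp7 (3 probe sets) and 1 of Tgfb2. At 1, 3, 6 and 12 h the members with EB lower numbered 0, 2, 1 and 0 (7.15%, 5.3%, 4.37% and 6.07% of all probe sets) and those with EB higher 0, 0, 0 and 1 (10.5%, 8.71%, 5.61% and 5.27%). With 3 arrays against 3, the exact permutation test gives at best the p of 0.1 that each of them had (two-sided).

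Bmp6, a ligand known for its control of hepcidin and iron in the liver, had 13.7, 12.7 and 36.3 in EB-treated mice at 24 h, against 45.5, 45.9 and 40.2 in vehicle-treated mice. All EB-treated mice were below the vehicle-treated ones, replicate 3 by the least. The log2 fold change was -1.24 (SE 0.37, ratio 0.422) and did not pass (adjusted p = 0.064, limma). Without EB 24 h replicate 3 it was -1.73 and passed (adjusted p = 0.0060, limma), where 2.55% of all probe sets passed. This rests on EB 24 h replicates 1 and 2, which stood apart in leptomeningeal genes. Without these 2 replicates the log2 fold change of Bmp6 was -0.27 (1 EB-treated mouse).

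Bmp7, which acts in kidney, eye and skeletal development, was read by 3 probe sets. Probe set 2 (1418910_at) had 24.1, 16.7 and 27.7 in EB-treated mice at 24 h, against 42.8, 41.9 and 39.8 in vehicle-treated mice, a log2 fold change of -0.89 (SE 0.27, adjusted p = 0.073, limma). Probe set 1 (1435479_at) had 46.1, 39.8 and 55.2 in EB-treated mice, against 60.2, 60.4 and 85.7 in vehicle-treated mice (-0.54, SE 0.29, adjusted p = 0.38). Probe set 3 (1432410_a_at) had 13.1, 22.6 and 27.4 in EB-treated mice, against 29.9, 37.4 and 41.3 in vehicle-treated mice (-0.84, SE 0.31, adjusted p = 0.16). The groups did not overlap on any of the 3 probe sets, and none passed. Without EB 24 h replicates 1 and 2 the values were -0.58, -0.30 and -0.39 in the same order.

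Bmp5, a ligand of skeletal development in mice, had 18.9, 21.7 and 14.4 in EB-treated mice at 24 h, against 24.4, 26.9 and 39.1 in vehicle-treated mice. The lowest value was that of EB replicate 3, the mouse whose leptomeningeal markers were least low. The log2 fold change was -0.71 (SE 0.23, adjusted p = 0.092, limma), and -1.04 without EB 24 h replicates 1 and 2, which rests on the lowest mouse alone. Bmp4, a patterning signal of the early embryo, had 26.0, 11.9 and 54.3 in EB-treated mice, against 61.9, 48.7 and 44.2 in vehicle-treated mice. Here the groups overlapped, since EB replicate 3 lay within the vehicle range, and the log2 fold change was -0.996 (SE 0.48, adjusted p = 0.31). It was 0.09 without EB 24 h replicates 1 and 2.

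Weighting each array by its quality was the one full-data alternative with members past the threshold at 24 h. It passed Bmp6 (-1.41, adjusted p = 0.0077) and Bmp7 probe set 2 (-0.98, adjusted p = 0.017), 2 of 11 members, where it also passed 6.72% of all probe sets.

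**Figure D1:**
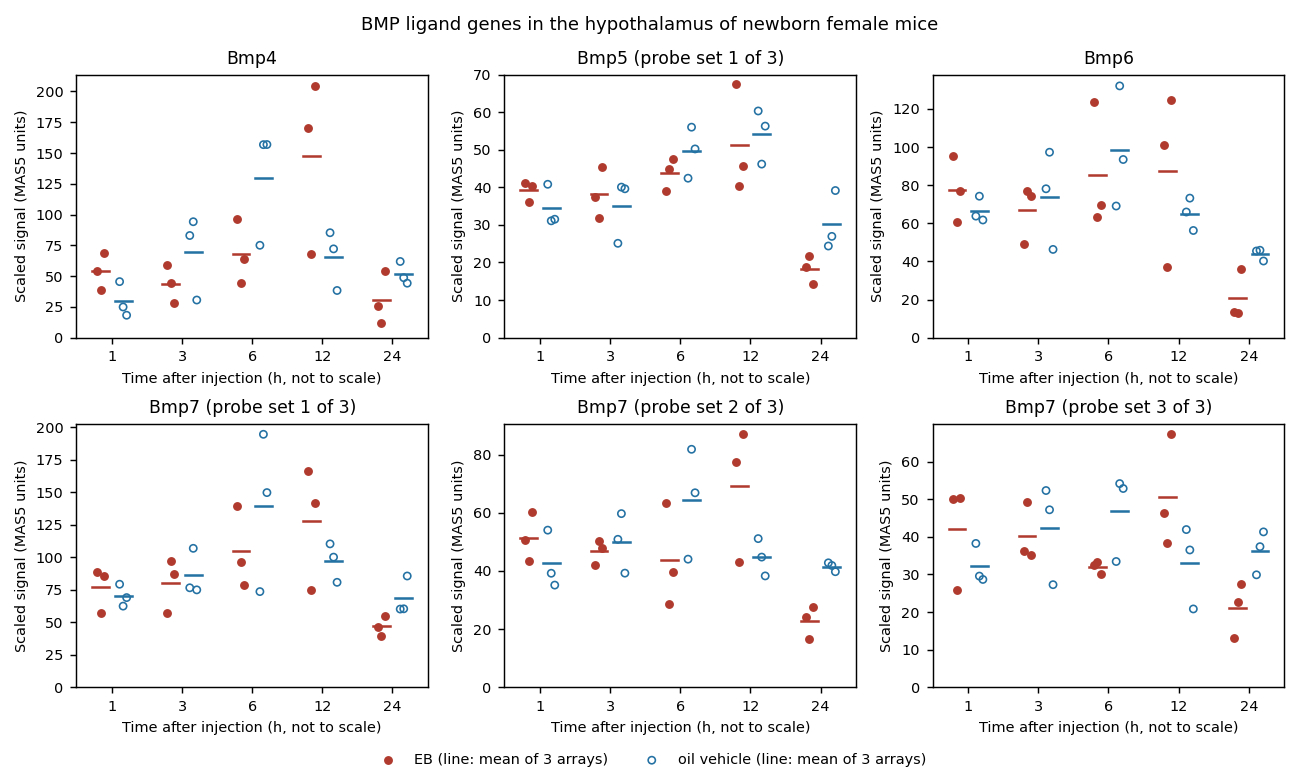
Scaled MAS5 signal (y axis) of Bmp4, Bmp5, Bmp6 and the 3 probe sets of Bmp7 against time after injection (x axis, h, evenly spaced), with filled circles for EB, open circles for the oil vehicle, 1 circle per mouse, and lines at the mean of 3. At 24 h the EB-treated mice lie below the vehicle-treated mice in every panel but that of Bmp4, where 54.3 in 1 EB-treated mouse lies among the vehicle values.

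Before 24 h the EB-treated and vehicle-treated mice overlapped for every BMP probe set past the filter, except for Bmp7 probe set 3 at 6 h, with 32.5, 33.3 and 30.1 in EB-treated mice and 33.4, 54.1 and 52.8 in vehicle-treated mice (log2 fold change -0.52, adjusted p = 0.88, limma). Bmp4 at 12 h had 170, 67.6 and 204 in EB-treated mice, against 85.2, 72.1 and 38.3 in vehicle-treated mice (log2 fold change 1.11, SE 0.48, adjusted p = 0.74). At 6 h it had 96.0, 44.4 and 63.5 in EB-treated mice and 75.0, 157 and 157 in vehicle-treated mice (-0.92, adjusted p = 0.85). Its log2 fold change was 0.94 at 1 h and -0.57 at 3 h (adjusted p = 0.60 and 0.65). For Bmp6 and the 3 Bmp7 probe sets the log2 fold changes were between 0.11 and 0.33 at 1 h, between -0.12 and -0.04 at 3 h, between -0.58 and -0.21 at 6 h and between 0.26 and 0.64 at 12 h. The median log2 fold change of the 24 leptomeningeal markers was 0.38, -0.18, -0.40, 0.53 and -1.96 from 1 h to 24 h, on the same side of 0 as those of Bmp4, Bmp6 and Bmp7 at each time. Bmp5 was on the other side at 3 h (0.15) and 12 h (-0.11). The endothelial medians had the same signs as the leptomeningeal ones (0.20, -0.03, -0.15, 0.08 and -0.13), so the match was not particular to leptomeningeal genes. None of the 24 leptomeningeal markers passed at 1, 3, 6 or 12 h (0 genes each, limma), and 20 passed as lower at 24 h.

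Tgfb2, which acts in heart, palate and neural crest development, was the only TGF-β gene past the filter. Its brightest probe set (1450923_at) had 238, 245 and 210 in EB-treated mice at 24 h, against 215, 174 and 237 in vehicle-treated mice, with overlapping groups (log2 fold change 0.16, SE 0.14, adjusted p = 0.64, limma). Probe set 2 (1423250_a_at) was the only one that did not overlap, with 133, 134 and 150 in EB-treated mice, against 162, 156 and 164 in vehicle-treated mice (-0.21, SE 0.11, adjusted p = 0.37). At 12 h the same probe set had 128, 128 and 148 in EB-treated mice, against 100, 116 and 103 in vehicle-treated mice (0.34, adjusted p = 0.64), again without overlap and in the other direction. Probe sets 3 (1450922_a_at) and 4 (1438303_at) had 0.21 and 0.16 at 24 h. With each array left out in turn, the 24 h values ranged from 0.033 to 0.253 for probe set 1, from 0.044 to 0.338 for probe set 3 and from 0.028 to 0.246 for probe set 4. The 4 probe sets had 0.02, -0.10, -0.06 and 0.17 without EB 24 h replicates 1 and 2. At 3 h probe sets 1 and 3 did not overlap, with 186, 205 and 196 in EB-treated mice and 214, 252 and 217 in vehicle-treated mice for probe set 1 (-0.22, adjusted p = 0.52), and -0.36 for probe set 3 (adjusted p = 0.42). Across the 30 arrays, probe sets 1 and 3 went together (Pearson's r = 0.78) and the other pairs did not (-0.32 to 0.27), so that a statement on Tgfb2 depends on the probe set. The 3 pairs of Bmp7 probe sets had r from 0.70 to 0.84. These correlations describe arrays that share the treatment groups.

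Tgfb1 and Tgfb3, the other TGF-β isoforms, lay below the filter. Tgfb3 had 4.95, 15.3 and 16.2 in EB-treated mice at 24 h, against 23.4, 30.2 and 22.6 in vehicle-treated mice, without overlap (exact permutation p = 0.1, two-sided). With no filter its log2 fold change was -1.24 (SE 0.47, adjusted p = 0.25, limma). The brightest Tgfb1 probe set had 9.12, 9.20 and 17.3 in EB-treated mice at 24 h, against 18.8, 20.6 and 15.9 in vehicle-treated mice, with overlap (-0.70 with no filter, adjusted p = 0.57). Over all arrays Tgfb1 ranged from 4.25 to 33.7 and Tgfb3 from 4.38 to 39.4, with geometric means of 18.9 and 19.5. With no filter, none of the 8 dim member probe sets passed at any time. The dimmer Tgfb1 probe set (1445360_at) at 12 h and Bmp5 1421282_at at 1 h did not overlap either, with EB higher. Their log2 fold changes with no filter were 0.72 and 1.13 (adjusted p = 0.99 and 0.62, limma).

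The activin subunit gene Inhba and the antagonist gene Fst, by their brightest probe sets, overlapped between the treatments at all 5 times. Inhba (brightest probe set, below the filter) had 21.1, 14.6 and 17.9 in EB-treated mice at 24 h, against 29.1, 19.6 and 15.7 in vehicle-treated mice. Fst (1434458_at) had 21.9, 16.8 and 30.2 in EB-treated mice at 24 h, against 19.5, 20.6 and 28.3 in vehicle-treated mice, a log2 fold change of -0.01 (SE 0.25, adjusted p = 0.99, limma), and 0.43 without EB 24 h replicates 1 and 2. Its group means ranged from 21.8 in EB-treated mice at 6 h to 32.7 in EB-treated mice at 3 h, each neighbour in that order overlapping the next. The dimmer Fst probe set, below the filter, had 5.95, 12.0 and 7.70 in EB-treated mice at 3 h, against 23.4, 21.4 and 20.7 in vehicle-treated mice, without overlap (-1.41 with no filter, adjusted p = 0.39), which the brighter one did not share (0.21).

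**Figure D2:**
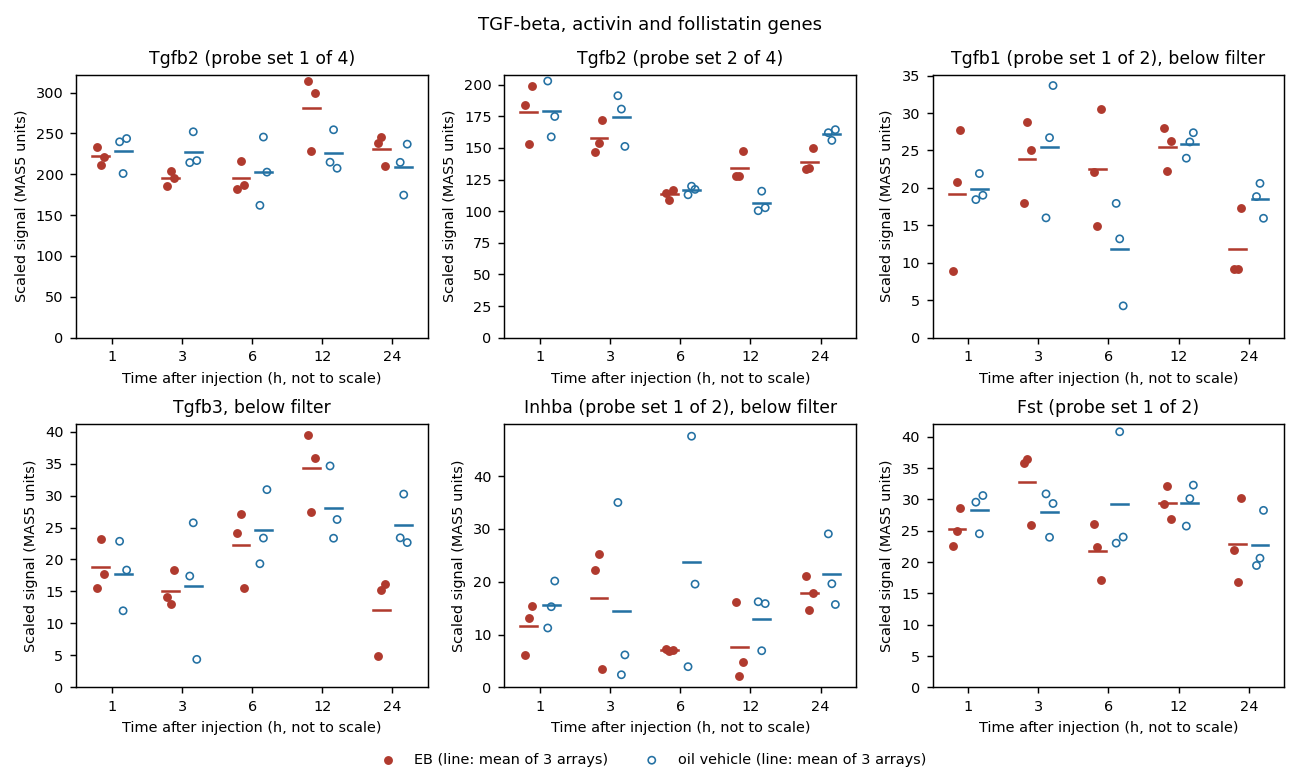
Scaled MAS5 signal (y axis) of the 2 brightest Tgfb2 probe sets and the brightest of Tgfb1, Tgfb3, Inhba and Fst against time after injection (x axis, h, evenly spaced), with filled circles for EB, open circles for the oil vehicle, 1 circle per mouse, and lines at the mean of 3. Tgfb2 probe set 2 is lowest at 6 h and 12 h in both treatments, and Tgfb3 in EB-treated mice at 24 h (4.95 to 16.2) lies below the vehicle-treated mice.

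The second question was how the ligand genes changed over the first day. In EB-treated mice 8 of 11 member probe sets changed over the 5 times (moderated F, adjusted p under 0.05, 22.9% of all probe sets), and in vehicle-treated mice 3 of 11 did (34.1% of all probe sets). Tgfb2 probe set 2, Bmp5 and Bmp4 passed in both, with an adjusted p of 0.0013, 0.00025 and 0.0078 in EB-treated mice and of 7.3e-06, 0.011 and 0.014 in vehicle-treated mice. Bmp6 (0.00031), the 3 Bmp7 probe sets (0.0088, 0.0016 and 0.021) and Tgfb2 probe set 1 (0.025) passed in EB-treated mice, and whether their course differed between the treatments is the interaction given above, which none passed. Over 1 h to 12 h only, 3 of 11 passed in each treatment (12.6% of all probe sets in EB-treated mice and 30.7% in vehicle-treated mice), and Bmp5, Bmp6 and Bmp7 were not among those of the EB-treated mice. Without EB 24 h replicates 1 and 2, which leaves 1 EB-treated mouse at 24 h, 3 of 11 passed in EB-treated mice, where 13.1% of all probe sets did. With no scaling 10 of 11 passed in vehicle-treated mice, where 94.8% of all probe sets did, so nothing is read from that count.

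In EB-treated mice 5 of 11 member probe sets were lower at 24 h than at 1 h (5.51% of all probe sets were lower, limma), and in vehicle-treated mice 0 of 11 passed in either direction (6.73% of all probe sets). Bmp6 fell to 13.7, 12.7 and 36.3 at 24 h in EB-treated mice, against 95.5, 60.5 and 77.1 at 1 h (log2 change -2.05, SE 0.37, adjusted p = 0.00065). In vehicle-treated mice it had 45.5, 45.9 and 40.2 at 24 h, against 63.8, 74.2 and 61.7 at 1 h (-0.60, SE 0.37, adjusted p = 0.35). Bmp5 fell to 18.9, 21.7 and 14.4 at 24 h in EB-treated mice, against 41.0, 36.1 and 40.5 at 1 h (-1.12, SE 0.23, adjusted p = 0.0020), where vehicle-treated mice had -0.21 (adjusted p = 0.63). For both genes the EB arrays of 24 h and 1 h did not overlap, and for Bmp6 those of vehicle-treated mice did not overlap either. The EB arrays of 24 h and 1 h also did not overlap for Bmp7 probe sets 1 and 2 and Tgfb2 probe set 2, nor did the vehicle arrays for Tgfb2 probe set 3. The share of all probe sets without overlap between 24 h and 1 h was not computed, so nothing is read from these gaps.

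Bmp7 probe sets 2 and 3 fell by 1.19 and 1.00 on the log2 scale in EB-treated mice (SE 0.27 and 0.31, adjusted p = 0.0051 and 0.036), against changes of -0.02 and 0.17 in vehicle-treated mice. Probe set 1 had -0.70 in EB-treated mice (adjusted p = 0.13). Tgfb2 probe set 2 fell by 0.36 (SE 0.11, adjusted p = 0.042), a call lost with no scaling (-0.33, adjusted p = 0.39), with no filter (adjusted p = 0.055) and when EB 24 h replicate 1 or 2 or EB 1 h replicate 1 or 3 was left out (adjusted p = 0.14, 0.13, 0.13 and 0.19). Bmp4 had -1.04 in EB-treated mice and 0.90 in vehicle-treated mice, neither past the threshold (adjusted p = 0.18 and 0.28). The change in EB-treated mice minus that in vehicle-treated mice was -1.45 for Bmp6, -0.90 for Bmp5, -1.94 for Bmp4 and -0.65, -1.17 and -1.17 for the 3 Bmp7 probe sets, and none of these differences passed (adjusted p = 0.19, 0.19, 0.18, 0.52, 0.15 and 0.21, 0.995% of all probe sets). A change over the day that was particular to EB was therefore not shown. Without EB 24 h replicates 1 and 2 the changes from 1 h to the 1 remaining EB-treated mouse at 24 h were -1.44 for Bmp5, of which this mouse had the lowest value, -1.08 for Bmp6, -0.88 and -0.55 for Bmp7 probe sets 2 and 3, 0.05 for Bmp4 and -0.24 for Tgfb2 probe set 2. Bmp7 probe set 3 lost its call when EB 24 h replicate 1 or 2 or EB 1 h replicate 1 or 3 was left out (adjusted p up to 0.22), and Bmp4 ranged from -1.58 without EB 24 h replicate 3, where it passed (adjusted p = 0.046), to -0.48 without EB 24 h replicate 2 (adjusted p = 0.63).

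**Figure D3:**
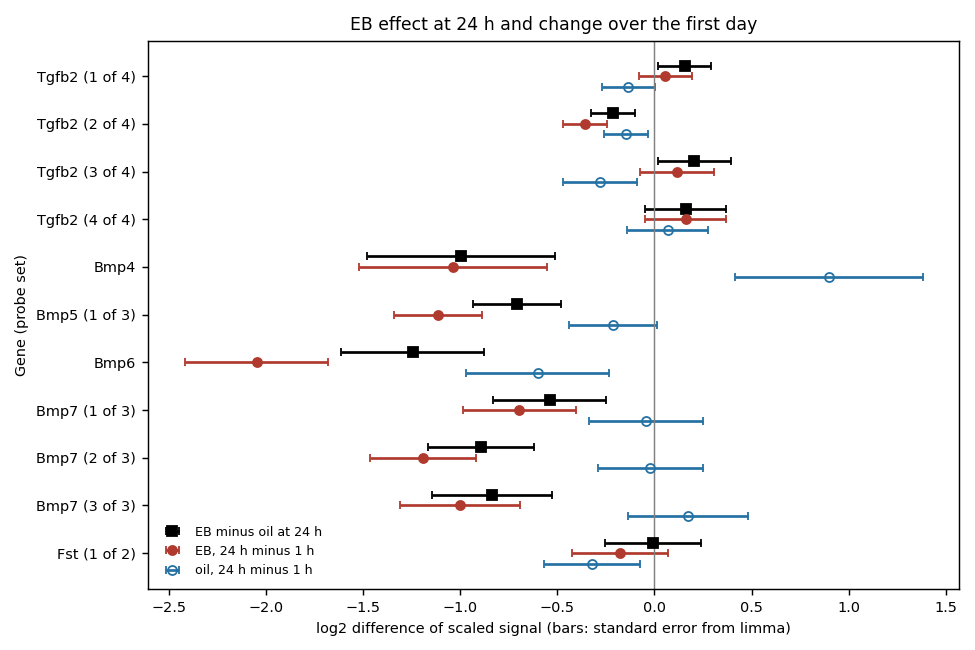
log2 differences of scaled signal (x axis) of the 11 member probe sets past the filter (y axis, numbered by brightness), with squares for EB minus oil at 24 h, filled circles for 24 h minus 1 h in EB-treated mice, open circles for the same in vehicle-treated mice, and bars for the standard error from limma. The BMP genes lie left of 0 in EB-treated mice, Bmp6 farthest at -2.05, while the vehicle-treated mice lie between -0.60 and 0.90 for these genes.

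The course between 1 h and 24 h differed by gene. Tgfb2 probe set 2 was lower at 6 h and 12 h in both treatments. It had 114, 109 and 116 at 6 h and 128, 128 and 148 at 12 h in EB-treated mice, against 184, 153 and 199 at 1 h (log2 changes -0.65 and -0.41, adjusted p = 0.00092 and 0.014, limma). In vehicle-treated mice it had 113, 120 and 117 at 6 h and 100, 116 and 103 at 12 h, against 203, 159 and 175 at 1 h (-0.61 and -0.75, adjusted p = 0.00060 and 1.4e-05). The 12 h arrays were the brightest, and with no scaling the 12 h changes of this probe set were 0.26 in EB-treated mice and -0.03 in vehicle-treated mice, where the median of all probe sets was 0.72 and 0.81. The changes at 6 h were -0.61 and -0.72 with no scaling, of which that in EB-treated mice no longer passed (adjusted p = 0.090) and that in vehicle-treated mice did (adjusted p = 0.0075). Bmp4 had 96.0, 44.4 and 63.5 at 6 h in EB-treated mice, against 54.3, 38.9 and 68.7 at 1 h (0.30, adjusted p = 0.76), and rose to 75.0, 157 and 157 at 6 h in vehicle-treated mice, against 45.5, 24.9 and 18.2 at 1 h (2.16, SE 0.48, adjusted p = 0.0031). Bmp5 had 67.4, 40.4 and 45.7 at 12 h in EB-treated mice (0.35 from 1 h, adjusted p = 0.32) and rose to 60.3, 46.2 and 56.3 at 12 h in vehicle-treated mice, against 40.8, 31.1 and 31.5 at 1 h (0.66, SE 0.23, adjusted p = 0.028).

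Ordered by group mean, EB-treated mice at 24 h were lowest of the 10 groups for Bmp5 (18.3 ± 3.7), Bmp6 (20.9 ± 13.3) and Bmp7 probe sets 1 to 3 (47.0 ± 7.8, 22.8 ± 5.6 and 21.0 ± 7.3; SD, n = 3). Each of these did not overlap the next group, which was vehicle-treated mice at 24 h for Bmp5 (30.2 ± 7.9), Bmp6 (43.8 ± 3.2) and Bmp7 probe sets 1 and 2 (68.8 ± 14.6 and 41.5 ± 1.6), and EB-treated mice at 6 h for Bmp7 probe set 3 (31.9 ± 1.7). For Bmp6, vehicle-treated mice at 24 h in turn did not overlap vehicle-treated mice at 12 h (65.1 ± 8.5), the next above. The order is by mean, and Bmp7 probe set 3 in EB-treated mice at 24 h, up to 27.4, did overlap groups further up. These were vehicle-treated mice at 12 h (from 20.8), EB-treated mice at 1 h (from 25.8) and vehicle-treated mice at 3 h (from 27.3). The highest group was vehicle-treated mice at 12 h for Bmp5 (54.3 ± 7.3), vehicle-treated mice at 6 h for Bmp6 (98.2 ± 31.8) and Bmp7 probe set 1 (139 ± 61), and EB-treated mice at 12 h for Bmp4 (147 ± 71) and Bmp7 probe sets 2 and 3 (69.3 ± 23.0 and 50.7 ± 14.9). The lowest for Bmp4 was vehicle-treated mice at 1 h (29.5 ± 14.2), just under EB-treated mice at 24 h (30.7 ± 21.6), and these overlapped. All other neighbours in the order overlapped for Bmp4, Bmp5, Bmp6 and Bmp7. For Tgfb2 probe set 1 every neighbour overlapped, with EB-treated mice at 12 h highest (281 ± 46) and EB-treated mice at 6 h lowest (195 ± 19). For probe set 2 the only gap lay between EB-treated mice at 12 h (134 ± 11) and vehicle-treated mice at 6 h (117 ± 3.4).

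Bmp4, Bmp6 and Bmp7 went together with the leptomeningeal markers across arrays, and Bmp5 did so less closely. Relative to the mean over all arrays, the mean log2 signal of the 24 markers was -2.88, -2.81 and -0.67 in EB-treated mice at 24 h and 0.11, 0.07 and -0.12 in vehicle-treated mice at 24 h. Over the 28 arrays without EB 24 h replicates 1 and 2, which stood apart, the correlation of log2 signal with this mean was r = 0.94 for Bmp7 probe set 2, 0.82 for Bmp7 probe set 1, 0.81 for Bmp6, 0.76 for Bmp4 and Bmp7 probe set 3, and 0.57 for Bmp5. After each group's mean was taken off over all 30 arrays, r was 0.88 for Bmp6, 0.78 for Bmp4 and 0.65 to 0.74 for the Bmp7 probe sets, but -0.08 for Bmp5. Over the 28 arrays r was 0.06 for Fst and -0.04 to 0.52 for the Tgfb2 probe sets. Within groups it was 0.33 for Fst and 0.14 to 0.52 for the Tgfb2 probe sets. Without all 3 EB arrays of 24 h, Tgfb2 probe sets 1 to 4 had 0.53, -0.02, 0.51 and 0.43, and Bmp5 had 0.44. Bmp5 thus lay within the range of Tgfb2. These are descriptions over arrays that share times and treatments. The relation is given for this marker list only. The part of the leptomeningeal signal in the BMP values was not tested.

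**Figure D4:**
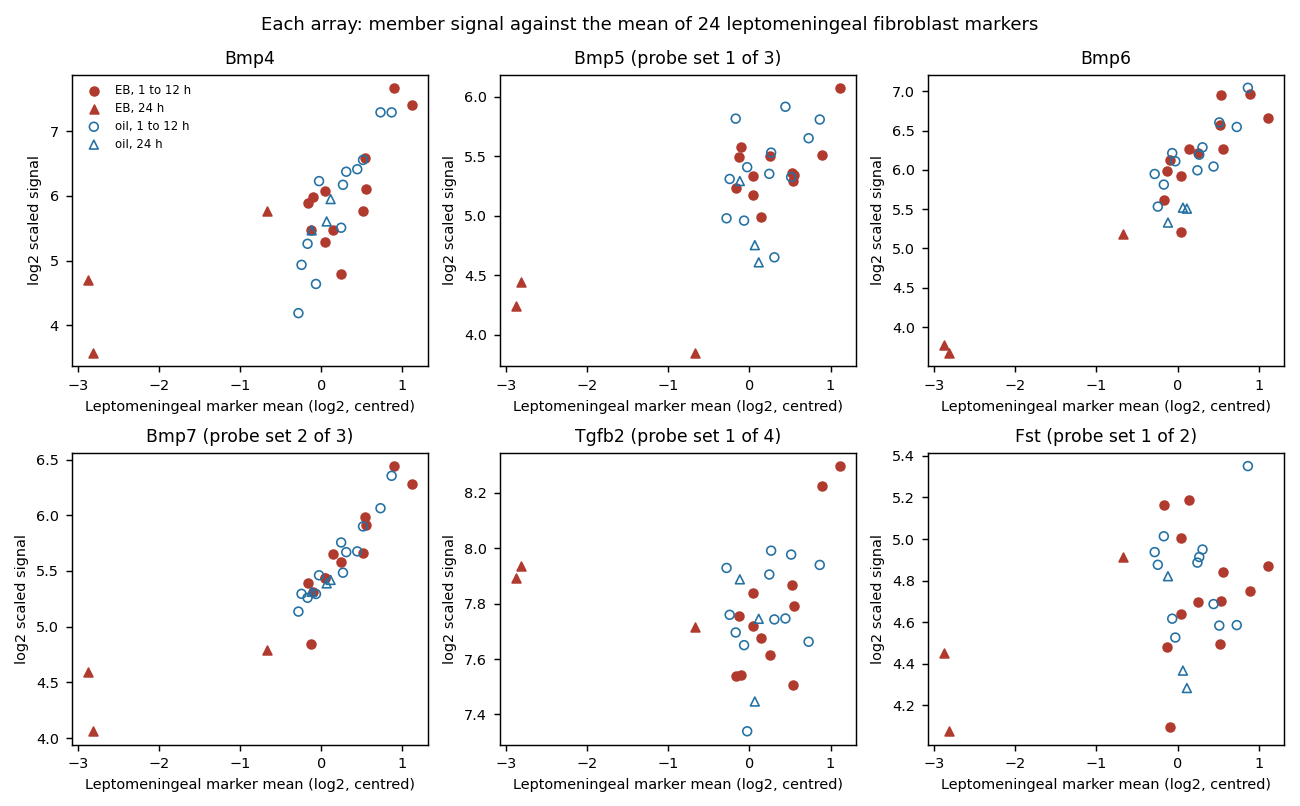
log2 scaled signal (y axis) of 6 member probe sets in each of the 30 arrays against the mean log2 signal of 24 leptomeningeal fibroblast markers, centred on the mean of the arrays (x axis), with filled symbols for EB, open symbols for the oil vehicle, and triangles for 24 h. EB 24 h replicates 1 and 2 lie at -2.88 and -2.81 on the x axis, where Bmp6 and Bmp7 are lowest and Tgfb2 is not.

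Among the BMP genes themselves, by their brightest probe sets, r within groups was 0.75 for Bmp6 and Bmp7, 0.74 for Bmp4 and Bmp6, 0.58 for Bmp4 and Bmp7, 0.37 for Bmp5 and Bmp7, -0.08 for Bmp5 and Bmp6, and -0.11 for Bmp4 and Bmp5. Bmp5 thus varied between mice of a group apart from Bmp4 and Bmp6. The genes most like each member, by Pearson's r of log2 signal over all 30 arrays against 12387 other genes, were Slc6a20a, Col1a2 and Apod for Bmp6 (r = 0.96, 0.95 and 0.95), Slc41a1, Fstl1 and Eva1b for Bmp7 (0.92, 0.91 and 0.90), and Slc41a1, Sh3pxd2a and Anxa3 for Bmp4 (0.90, 0.89 and 0.89). Col1a2 encodes a chain of type I collagen and is one of the leptomeningeal markers, and Fstl1 encodes a secreted follistatin-like protein. For Bmp5 they were Igfbp4, Laptm4b and Copz2 (0.79, 0.79 and 0.78), for Tgfb2 Gm5089, Nudt4 and Casp8 (0.68, 0.62 and 0.60), and for Fst Rasgrp1, Map3k20 and Cthrc1 (0.65, 0.63 and 0.63). The arrays include the EB 24 h replicates that stood apart.

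The other genes of the pathway were followed by the brightest probe set of each. Of 87 genes listed, 78 had a probe set and 53 passed the filter. None passed at 1, 3, 6 or 12 h (0 of 53), and at 24 h EB-treated mice had 5 of 53 genes lower and 0 higher, with a median log2 fold change of -0.19. All probe sets gave 2.19% lower and 0.588% higher at 24 h. Of the other ligands 0 of 7 passed, of the receptors 2 of 12, of the Smads 0 of 6, of the extracellular modulators 2 of 17 and of the target genes 1 of 12. The 7 other ligands were all below 0, from -0.82 to -0.002 (median -0.24), where 52.1% of all probe sets were below 0.

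Tgfbr2, the type II receptor of TGF-β, fell to 86.6, 87.2 and 159 in EB-treated mice at 24 h, against 194, 191 and 175 in vehicle-treated mice (log2 fold change -0.81, SE 0.19, adjusted p = 0.014, limma). Tgfbr3, the co-receptor betaglycan, fell to 25.8, 20.6 and 62.2 in EB-treated mice, against 79.6, 92.1 and 70.0 in vehicle-treated mice (-1.32, SE 0.32, adjusted p = 0.022). Of both genes EB replicate 3 lay nearest to the vehicle-treated mice. The type I receptors Tgfbr1, Acvr1 and Bmpr1a had -0.19, 0.00 and -0.04, and the BMP type II receptor Bmpr2 had -0.01, none past the threshold.

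Among the extracellular modulators, Nbl1, a secreted BMP antagonist of the DAN family, fell to 10.6, 14.5 and 33.2 in EB-treated mice at 24 h, against 52.5, 54.8 and 45.5 in vehicle-treated mice (-1.56, SE 0.34, adjusted p = 0.010, limma). Dcn, which encodes the TGF-β-binding proteoglycan decorin and is also one of the 24 leptomeningeal markers, fell to 16.9, 25.3 and 143 in EB-treated mice, against 227, 187 and 184 in vehicle-treated mice (-2.33, SE 0.48, adjusted p = 0.0060). Ccn2, connective tissue growth factor and a target of TGF-β, fell to 30.9, 53.9 and 83.7 in EB-treated mice, against 172, 81.8 and 138 in vehicle-treated mice (-1.27, SE 0.35, adjusted p = 0.047), with overlap. The BMP targets Id1 and Id3 had -0.42 and -0.36, and Id2 and Id4 had 0.02 and 0.35, none past the threshold. Without EB 24 h replicates 1 and 2 the values of Tgfbr2, Tgfbr3, Nbl1, Dcn and Ccn2 were -0.23, -0.36, -0.61, -0.47 and -0.58 (1 EB-treated mouse). The EB effect did not pass as differing between times for any of the 5 (adjusted p = 0.15, 0.090, 0.060, 0.067 and 0.10).

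From 1 h to 24 h in EB-treated mice, the receptors Tgfbr2, Tgfbr3 and Acvrl1, the modulators Dcn, Nbl1, Bgn and Fstl1 and the target Id1 were lower (8 of 53 genes) and Smad2 was higher (1 of 53), where 10.2% of all probe sets passed in either direction and 5.51% as lower. Dcn had -3.13, Nbl1 -2.27, Tgfbr3 -1.51, Bgn -0.98, Acvrl1 -0.95, Fstl1 -0.87, Tgfbr2 -0.81, Id1 -0.76 and Smad2 0.32 on the log2 scale. With no scaling Acvrl1, Id1 and Smad2 did not pass (6 of 53 genes passed, 2.02% of all probe sets). In the same order the values were -1.27, -1.32, -0.55, -0.34, -0.50, -0.66, -0.22, -0.76 and 0.44 without EB 24 h replicates 1 and 2 (1 EB-treated mouse). In vehicle-treated mice, Inha, which encodes the inhibin α subunit, Acvr1b, Smad1 and Smad3 were higher at 24 h than at 1 h (0.38, 0.29, 0.25 and 0.45) and no gene of the lists was lower. These 4 of 53 genes are a share near the 6.73% of all probe sets, and with no scaling none passed (0 of 53).

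**Figure D5:**
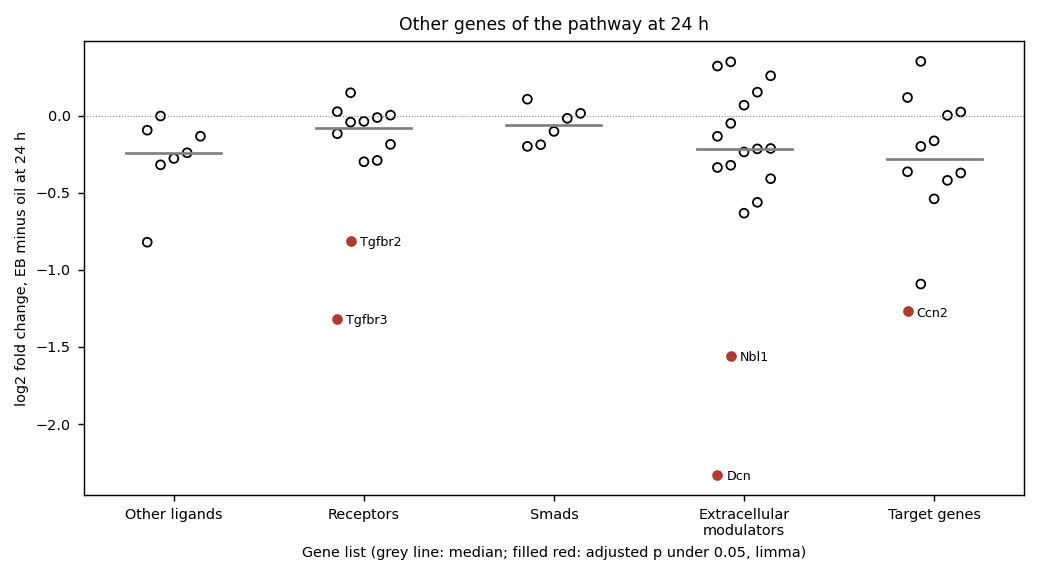
log2 fold change of EB over the oil vehicle at 24 h (y axis) of the 53 other pathway genes past the filter, by list (x axis), 1 circle per gene and list, with a grey line at the median and filled circles for an adjusted p under 0.05 (limma). The 5 filled circles, Tgfbr2, Tgfbr3, Nbl1, Dcn and Ccn2, lie between -2.33 and -0.81, and Smad7 stands in 2 lists.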

How the data were processed

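RNA of the whole hypothalamus of single mice was hybridised to Affymetrix GeneChip mouse genome arrays. The authors deposited MAS5 signal intensity on a linear scale. The MAS5 version is not given in the sources used here, nor is a scaling target. Arrays were brought to a common median, the mean of the 30 array medians (41.3), signals under 1 were set to 1, and log2 was taken. Dropping the 64 control probe sets and the dimmest 40% (by mean log2 signal) left 27022 probe sets of 12388 genes. limma 3.58.1 in R 4.3.3 (lmFit, eBayes with a trend) was fitted to 10 group means with Benjamini-Hochberg adjustment over all probe sets kept and a threshold of 0.05, after it had been tested on simulated data. The number of arrays limits the precision. All value columns matched a sample (0 did not).

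The 9 genes, the gene lists and the tests were chosen with earlier results of these data known. Genes were named as all members and the pathway genes past the threshold at a time (at most 8 per list, none cut). Likeness had been meant for members past the threshold. Since 0 passed, it was given for the brightest probe set of each of the 6 genes past the filter. The listing of receptors and Id genes that did not pass, and of genes that changed from 1 h to 24 h, was chosen after their values were seen. Symbols came from the platform annotation: 34945 probe sets had 1 symbol, 932 several and 9160 none. The alternatives were no scaling, quantile scaling, a floor of 16, no filter or a 60% filter, array weights, the replicate number as a block, a fit to only the 6 arrays of a time, the two-factor model of the methods on the linear signal, and each array left out. The two-factor model was fitted without moderation and adjusted by Benjamini-Hochberg over all probe sets, not by the Bonferroni test that the paper names. Leaving out 2 arrays together and the 1 h to 12 h test were added after the data were seen.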

Additional observations from a re-analysis of the deposited data

How the results depend on the processing

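No member probe set passed for EB against vehicle at 1, 3, 6 or 12 h or averaged over the times under any alternative run or with any single array left out (counts of 0 to 0). At 24 h the count was 2 with array weights (6.72% of all probe sets). It ranged from 0 to 1 with each array left out (Bmp6, without EB 24 h replicate 3, where 2.55% of all probe sets passed). That fit leaves EB 24 h replicates 1 and 2, which stood apart in leptomeningeal genes. The count for the EB effect differing between times ranged from 0 to 1 (Bmp7 probe set 2, without EB 6 h replicate 1 or EB 12 h replicate 2). The share of all probe sets passing this test in those fits was not computed. The 3 members that changed over time in vehicle-treated mice became 10 with no scaling and 10 under the methods' two-factor model, where 94.8% and 94.3% of all probe sets passed on the unscaled signals, whose median in vehicle-treated mice was 0.81 higher on the log2 scale at 12 h than at 1 h with no scaling. With the lowest 60% left out 4 members were tested, and 1 of these passed (43.9% of all probe sets; 2 to 4 of 11 with each array left out). The 8 in EB-treated mice became 3 of the 4 tested with the lowest 60% left out (30.2% of all probe sets), and 3 of 11 without EB 24 h replicates 1 and 2 (13.1%) and 3 over 1 h to 12 h only (12.6%) (7 to 8 with each array left out). The sign at 24 h turned for Tgfb2 probe set 2 (0.014 with no scaling, 0.00485 under the methods' model) and Fst (0.217 and 0.206), where no scaling moved the median of all probe sets by 0.22. Without EB 24 h replicates 1 and 2 it turned for Tgfb2 probe set 3 (-0.0595), Fst (0.426) and Bmp4 (0.0887, and 0.0472 from 1 h to 24 h). Fst also ranged from -0.227 to 0.194 with each array left out. With no scaling both moved by about the shift of all probe sets. The values without replicates 1 and 2 rest on 1 EB-treated mouse at 24 h. Same-numbered mice did not deviate together (15 pairs, r from -0.132 to 0.088), and the main fit did not pair them. The labels do not say whether the numbers stand for a litter or an order of processing, and these values cannot show it. With the replicate block the member count at 24 h stayed 0, 775 probe sets passed in place of 751, and Ccn2 did not pass (adjusted p = 0.060, limma). Tgfbr2 and Tgfbr3 did not pass without oil 24 h replicate 1 or 2 or EB 24 h replicate 1 or 2, Nbl1 without oil 24 h replicate 1 or EB 24 h replicate 1 or 2, Dcn without EB 24 h replicate 1 or 2, and Ccn2 without oil 24 h replicate 1 or 3 or EB 24 h replicate 1 or 2. Tgfbr2, Tgfbr3 and Ccn2 did not pass with no scaling (adjusted p = 0.15, 0.081 and 0.10, limma), nor Ccn2 with quantile scaling or no filter (0.066 and 0.089), nor Tgfbr3, Dcn and Ccn2 in the 6 arrays of 24 h (0.055, 0.051 and 0.061). Under the methods' model none of the 5 passed, nor did any change from 1 h to 24 h of Bmp5, Bmp6 or Bmp7. Under it only 0.0037% of all probe sets passed at 24 h, and 0.0074% from 1 h to 24 h in EB-treated mice. With so few passing, it says nothing of these genes in particular. Bmp7 probe set 3 did not pass from 1 h to 24 h with no scaling or no filter (0.087 and 0.069).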
